A study of Mus musculus with 108 samples.

Results

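The 10 genes described here encode the machinery that makes, senses and breaks down cyclic AMP (cAMP) in the mouse oocyte: the receptor gene Gpr3, the G protein gene Gnas, the adenylyl cyclase genes Adcy3 and Adcy9, the phosphodiesterase gene Pde3a, and 5 subunit genes of protein kinase A (PKA), Prkaca, Prkacb, Prkar1a, Prkar2a and Prkar2b. They were matched by symbol, and each is 1 of the 55573 Ensembl gene IDs in the count files. RNA was counted in 86 single oocytes. The donors were control females and females lacking Exosc10, a ribonuclease gene of the nuclear RNA exosome, in the oocyte only (conditional knockout, cKO). The labels give neither the Cre driver nor the alleles of either genotype. Oocytes were taken at the germinal vesicle stage (GV, prophase arrest), after 3 h (GV3h), or as metaphase II eggs (MII). GV and 3 h oocytes were kept outside the body in M2 medium, and MII eggs were taken from oviducts. The polyA libraries, captured by oligo(dT), came from 7 control oocytes (2 females) and 15 cKO oocytes (2 females) at GV, from 8 control (3 females) and 11 cKO (3 females) at GV3h, and from 8 control (3 females) and 15 cKO (3 females) at MII. The RiboMinus libraries, primed with random hexamers on RNA that need not carry a poly(A) tail, came from 8 control oocytes (2 females) and 7 cKO oocytes (2 females) at GV, and from 3 control oocytes (1 female) and 4 cKO oocytes (2 females) at MII.

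In a fully grown oocyte, the constitutively active receptor GPR3 drives adenylyl cyclase through the stimulatory G protein encoded by Gnas. The resulting cAMP binds the regulatory subunits of PKA and frees its catalytic subunits, whose activity restrains the cell cycle kinase CDK1 and keeps the oocyte in prophase. PDE3A destroys cAMP. It is held in check by cyclic GMP that reaches the oocyte from the surrounding granulosa cells through gap junctions, and a fall in cAMP lets meiosis resume.

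The female was the replicate: counts were summed over her oocytes, and levels are CPM (counts scaled to a common library size, with TMM factors). Calls were made with edgeR's quasi-likelihood test, at a p under 0.05 after Benjamini-Hochberg adjustment over all genes tested. Total gene counts per oocyte ranged from 4638718 to 8735914 in the polyA and from 12319658 to 62675760 in the RiboMinus libraries. All 10 genes passed the filter on low counts in every fit. Exosc10 ran from 43.0 to 166 CPM in control oocytes and from 0 to 8.28 CPM in cKO oocytes, so every oocyte matched its genotype label. The median Spearman correlation of an oocyte with the others of its group lay between 0.895 and 0.962 (polyA) and between 0.886 and 0.947 (RiboMinus). Spike-in RNA was added to each oocyte, but the gene files hold 0 spike-in lines. Every value is therefore relative to the other RNA of the same library. All 10 oocyte markers were detected in every group, with summed levels of 6830 to 26000 CPM per oocyte. Their levels were not the same in both genotypes. In polyA libraries 3 were called at GV, 5 at GV3h and 6 at MII, all higher in cKO. The shares of all genes called were 7.38%, 25.2% and 18.9%. The 17 granulosa and cumulus cell markers summed to 70.3 to 209 CPM per oocyte, of which Cyp19a1 and Nr5a2 made up 67.7% to 90.6% of the group means. Of the other markers, Kitl was highest in most groups (group means of 6.11 to 15.3 CPM), Inha reached 8.18 CPM (polyA GV control), Ptgs2 8.37 CPM and Fshr 4.23 CPM (both RiboMinus MII cKO), Amh reached 3.73 CPM, and Foxl2, Tnfaip6 and Ptx3 had group means of 0 to 0.396 CPM. The part of these RNAs in the results was not tested.

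Promoter sequences are shown for Gpr3 and Prkar2b, which were called lower in cKO oocytes in polyA libraries at both GV and GV3h. Pde3a, whose oocytes did not overlap between genotypes at GV or GV3h, has no entry among the promoters used here. They run from 250 bases before to 50 bases after the start site (RefSeq, GRCm38.p6), and capitals mark the half-site of the cAMP response element, TGACG, or CGTCA where it lies on the other strand. The Gpr3 promoter is chr4:133212487-133212786 on the minus strand, and the Prkar2b promoter is chr12:32061228-32061527, also on the minus strand.
Gpr3: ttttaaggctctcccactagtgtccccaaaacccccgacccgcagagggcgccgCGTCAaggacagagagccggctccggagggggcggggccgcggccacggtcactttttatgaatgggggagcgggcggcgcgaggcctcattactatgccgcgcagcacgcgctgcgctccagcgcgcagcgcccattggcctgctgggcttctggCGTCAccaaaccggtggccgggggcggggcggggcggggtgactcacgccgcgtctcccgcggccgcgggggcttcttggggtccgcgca
Prkar2b: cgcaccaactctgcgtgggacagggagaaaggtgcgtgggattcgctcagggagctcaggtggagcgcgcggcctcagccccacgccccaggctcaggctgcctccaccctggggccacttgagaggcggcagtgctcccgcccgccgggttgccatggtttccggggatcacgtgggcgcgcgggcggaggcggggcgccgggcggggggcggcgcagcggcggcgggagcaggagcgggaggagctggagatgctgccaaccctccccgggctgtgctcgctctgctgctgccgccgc
The Gpr3 promoter holds half-sites that begin 196 and 40 bases before the start site, and the Prkar2b promoter holds none. Promoters were listed for 9 of the 10 genes, 22 promoters in all, and 11 of the 22 hold the half-site, against 20.81% of all 32851 promoters of the same length. Some of the 22 overlap and count the same half-site more than once, as a pair of Gnas promoters does. A match is a match of letters and not evidence of binding.

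Gpr3 and Pde3a, the source and the sink of oocyte cAMP, and Prkar2b, a regulatory subunit gene, were lower in cKO than in control oocytes in polyA libraries at some stages, and none of them was called in a RiboMinus genotype comparison. In polyA libraries at GV, 2 of the 10 genes were called (Gpr3 and Prkar2b), at GV3h 3 (the same and Pde3a) and at MII 1 (Gpr3), each of them lower in cKO. Over all 19242 genes tested, 7.38% were called at GV, 25.2% at GV3h and 18.9% at MII. The counts at GV3h and MII were near or below that background. The count at GV was above it, but fell to 1 without cKO female V857 or V888, when 3.27% and 8.8% of all genes were called. It fell to 0 without control female V856 (1.63% of all genes) or V889 (0.529%), or when the GV females were fitted alone (1 of 18004 genes). The median log2 change was 0.04, -0.16 and -0.14 over the 10 genes and 0.08, 0.07 and 0.12 over all genes.

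Gpr3 (chr4:133209340-133212536, minus strand, in the authors' build mm10) encodes the receptor whose constitutive activity maintains prophase arrest. At GV it stood at 82.4 and 75.6 CPM in the control females and at 48.3 and 30.9 CPM in the cKO females. The females did not overlap, and neither did the oocytes, with 68.8 CPM in the lowest control oocyte and 65.4 CPM in the highest of the 15 cKO oocytes. Its level fell by 1.00 on the log2 scale (SE 0.21, edgeR adjusted p = 0.013), to 0.501-fold of control. At GV3h the control females were at 81.7, 85.0 and 65.1 CPM and the cKO females at 28.7, 27 and 30.2 CPM, again without overlap between females or oocytes. This was its largest genotype change of the 5 measured, a log2 change of -1.43 (SE 0.18, edgeR adjusted p = 9.81e-05). At MII the control females were at 80.1, 92.4 and 100 CPM and the cKO females at 57.8, 49.3 and 56.6 CPM, a log2 change of -0.74 (SE 0.17, edgeR adjusted p = 0.00856). Females were apart there too, and 12 of 15 cKO eggs lay below the lowest control egg. In RiboMinus libraries the control females stood at 106 and 85.4 CPM and the cKO females at 87.9 and 57.1 CPM at GV, so the groups overlapped (log2 change -0.40, SE 0.29, edgeR adjusted p = 0.563). At RiboMinus MII the single control female was at 94.8 CPM and the cKO females at 73.4 and 52.3 CPM (log2 change -0.59, SE 0.35, edgeR adjusted p = 0.3).

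The GV call of Gpr3 rests on 2 females a group. Its adjusted p rose to 0.0608 (log2 -0.71) without cKO female V888, to 0.078 (log2 -0.93) without control female V856 and to 0.095 (log2 -1.05) without control female V889, and to 0.165 (log2 -1.01) when the 4 GV females were fitted alone. The GV3h and MII calls were kept in all 14 alternatives run for each. Gpr3 shares 204 bp of exon, 7.46% of its exon length, with Cd164l2 on the opposite strand, and the strand setting of the counting is not given in the sources used here. Cd164l2 was more abundant, with female values of 104 to 605 CPM in polyA libraries. It was also lower in cKO oocytes at GV3h (log2 change -0.54, edgeR adjusted p = 0.0276) and MII (log2 change -1.21, edgeR adjusted p = 0.000279), and reads of the pair in the shared stretch cannot be told apart without strand.

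**Figure D1:**
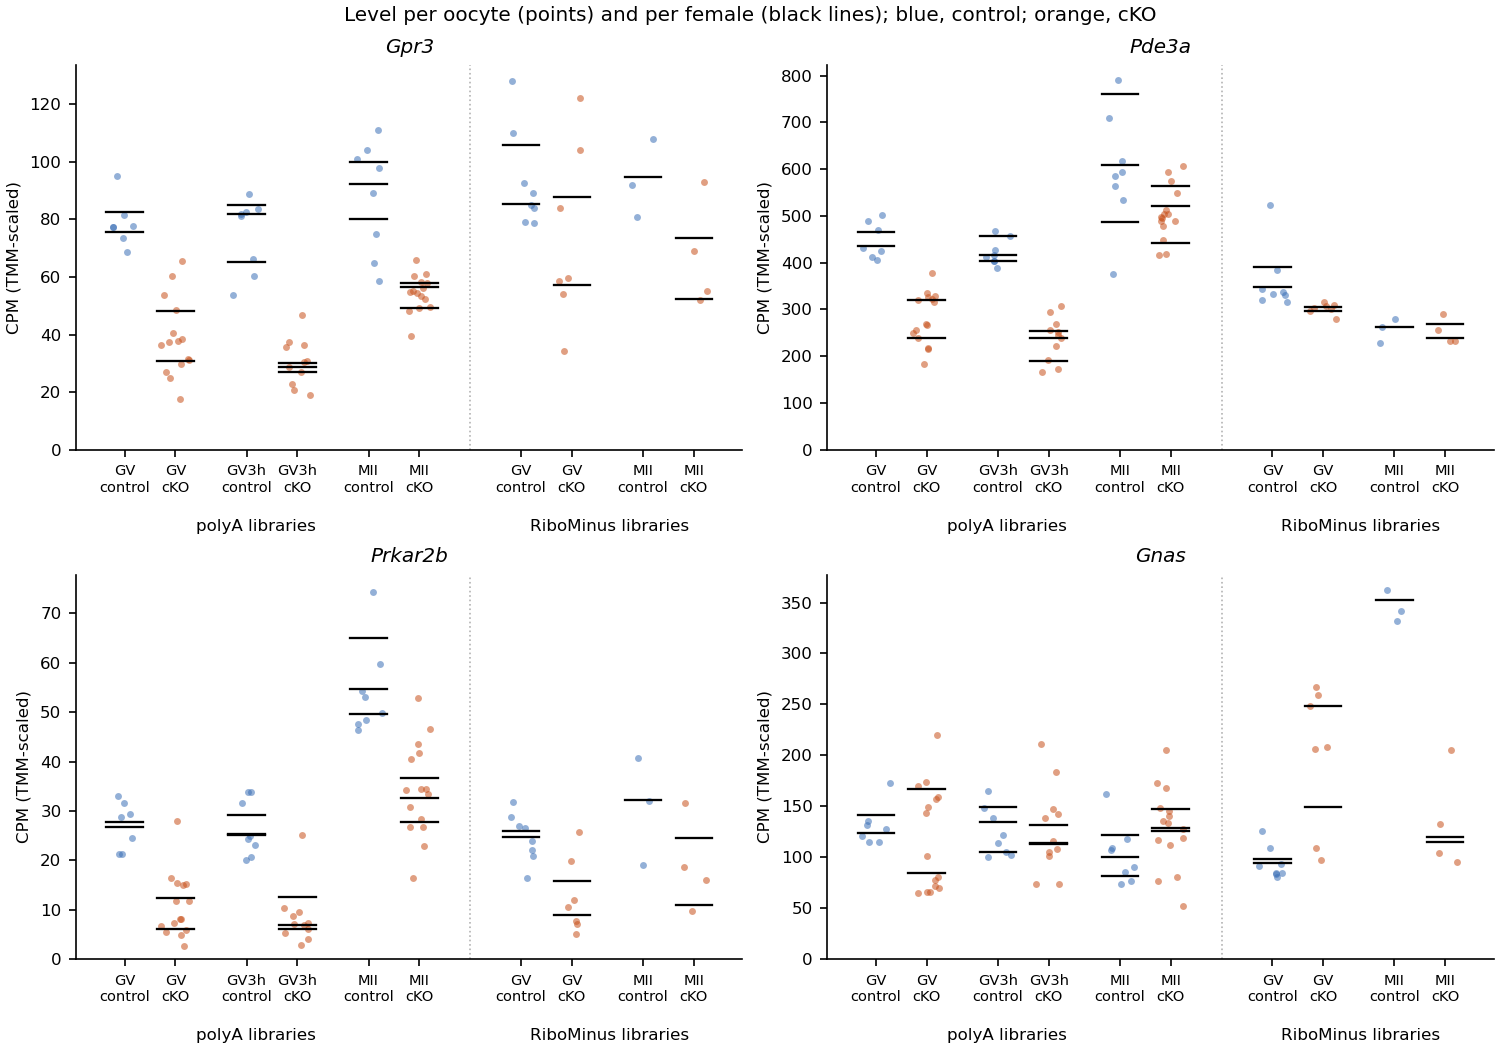
Levels of Gpr3, Pde3a, Prkar2b and Gnas in TMM-scaled CPM (y axis, linear from 0) in the 10 groups (x axis). Points are oocytes, black lines are females from summed counts, blue is control and orange is cKO; the polyA GV and GV3h oocytes of Gpr3 and Pde3a do not overlap between genotypes, and the 3 RiboMinus MII control eggs stand highest for Gnas.

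Pde3a (chr6:141249269-141507448, plus strand) encodes the main cAMP phosphodiesterase of the oocyte. At GV the control females stood at 465 and 436 CPM and the cKO females at 321 and 239 CPM. Neither females nor oocytes overlapped (lowest control oocyte 405 CPM, highest cKO oocyte 378 CPM), but the log2 change of -0.69 (SE 0.20) had an edgeR adjusted p of 0.0532 and was not called. DESeq2 on the same sums called it (log2 -0.66, adjusted p = 0.019), and 14.2% of all genes. At GV3h the control females were at 416, 457 and 403 CPM and the cKO females at 253, 240 and 189 CPM, and its level fell by 0.90 on the log2 scale (SE 0.17, edgeR adjusted p = 0.00131). Every cKO oocyte there lay below every control oocyte (highest 307 CPM, lowest 389 CPM), and all 14 alternatives kept the call. At MII the females overlapped, with 488, 608 and 761 CPM in controls and 564, 443 and 522 CPM in cKO (log2 change -0.28, SE 0.17, edgeR adjusted p = 0.254). RiboMinus females stood at 390 and 348 CPM in control and 305 and 296 CPM in cKO females at GV (log2 change -0.29, SE 0.20, edgeR adjusted p = 0.538), and 263 CPM in the control against 270 and 238 CPM in the cKO females at MII (log2 change -0.05, SE 0.25, edgeR adjusted p = 0.927).

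Prkar2b (chr12:31958476-32061296, minus strand) encodes the RII beta regulatory subunit, which binds cAMP and anchors PKA. In polyA libraries it had the largest GV and GV3h genotype changes of the 10 genes. At GV it stood at 27.7 and 26.7 CPM in control and at 6.16 and 12.4 CPM in cKO females, a log2 change of -1.55 (SE 0.35, edgeR adjusted p = 0.0165) or 0.342-fold of control. The females were apart, and 14 of 15 cKO oocytes lay below the lowest control oocyte. This call was lost without cKO female V857 (log2 -1.14, adjusted p = 0.109), control female V856 (log2 -1.53, adjusted p = 0.071) or control female V889 (log2 -1.57, adjusted p = 0.107), and when the GV females were fitted alone (log2 -1.56, adjusted p = 0.162). At GV3h the control females were at 29.1, 25.4 and 25.1 CPM and the cKO females at 6.91, 12.5 and 6.09 CPM (log2 change -1.64, SE 0.29, edgeR adjusted p = 0.000847), and 10 of 11 cKO oocytes lay below the lowest control oocyte. At MII both groups stood higher, at 49.7, 54.6 and 65.1 CPM in control and 32.7, 27.8 and 36.6 CPM in cKO females. The females were again apart, but the log2 change of -0.80 (SE 0.28) missed the threshold (edgeR adjusted p = 0.055; DESeq2 on the same sums called it, with an adjusted p of 0.0188, and 24.7% of all genes). RiboMinus control females were at 25.9 and 24.8 CPM at GV, above the cKO females at 15.9 and 8.85 CPM (log2 change -1.03, SE 0.44, edgeR adjusted p = 0.33). At RiboMinus MII the control female was at 32.2 CPM and the cKO females at 11 and 24.6 CPM (log2 change -0.85, SE 0.52, edgeR adjusted p = 0.317). All 5 genotype values of Gpr3, Pde3a and Prkar2b were negative.

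**Figure D2:**
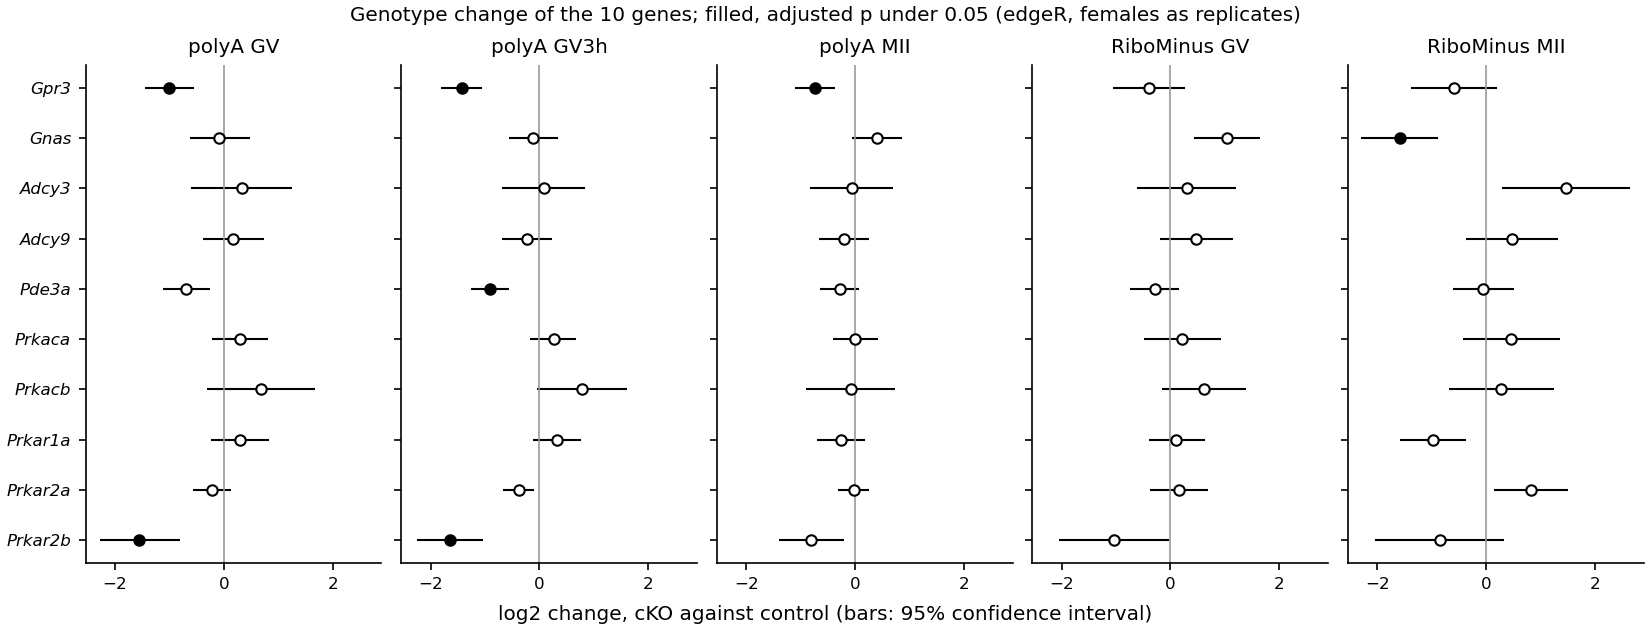
The log2 change of cKO against control (x axis) for each of the 10 genes (y axis) in the 5 genotype comparisons. Points are estimates from female sums with their 95% confidence intervals, filled where the adjusted p was under 0.05; Gpr3, Pde3a and Prkar2b lie left of 0 throughout, and the filled point at RiboMinus MII is Gnas.

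Gnas (chr2:174284320-174346744, plus strand) encodes the alpha subunit of the stimulatory G protein that couples GPR3 to adenylyl cyclase. Its polyA level did not differ between genotypes at the threshold, with log2 changes of -0.08, -0.11 and 0.40 at GV, GV3h and MII. Control females at polyA GV stood at 141 and 124 CPM, between the cKO females V857 (167 CPM) and V888 (84.3 CPM). The 5 oocytes of V857 ran from 143 to 220 CPM and the 10 of V888 from 65.0 to 159 CPM. The pair of females thus overlapped only in part. In RiboMinus libraries at GV the control females were at 98.1 and 94.4 CPM and the cKO females at 149 and 248 CPM, apart but not called (log2 change 1.04, SE 0.27, edgeR adjusted p = 0.15). At MII the 3 eggs of the single control female V1145 stood at 332, 342 and 362 CPM. The 4 cKO eggs stood at 94.8, 104, 133 and 205 CPM, all below every control egg. This log2 change of -1.58 (SE 0.31, edgeR adjusted p = 0.0264) was the only 1 of the 10 genes called at RiboMinus MII, where 7.3% of 25425 genes were called. The call was kept in all 10 alternatives. None of these could leave out V1145, so the control group and that female cannot be told apart.

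Gnas also overlaps other genes on the opposite strand, by 988 bp with Nespas (8.83% of its exon length) and by 1469 bp with Gm20721 (13.13%). Nespas was low, with group means of 0.832 to 4.66 CPM. Gm20721 moved with Gnas in every female: the ratio of Gnas to Gm20721 lay between 1.11 and 1.19 in all 16 polyA females and between 1.18 and 1.28 in all 7 RiboMinus females, and Gm20721 changed by -1.65 (log2, edgeR adjusted p = 0.0254) at RiboMinus MII. Reads of this pair cannot be told apart here.

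At RiboMinus GV, none of the 10 genes was called by edgeR, against 8 of all 25425 genes (0.0315%). Unadjusted p-values were under 0.05 for 2 of the 10 genes, Gnas and Prkar2b, and for 14.7% of all genes. DESeq2 and limma voom each called 1 of the 10, Gnas, and 6.19% and 8.32% of all genes. The median log2 change of the 10 genes was 0.18 at RiboMinus GV and 0.11 at RiboMinus MII, beside 0.04 and 0.25 over all genes.

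None of the remaining genes was called between genotypes in polyA libraries. Adcy9 (chr16:4287529-4420498, minus strand), a widely expressed cyclase isoform gene, changed by 0.17 at GV, -0.22 at GV3h and -0.20 at MII on the log2 scale. Adcy3 (chr12:4133103-4213525, plus strand), the cyclase linked to prophase arrest in rodent oocytes, was the scarcest with Prkacb, at 4.81 to 8.72 CPM in the 4 GV females, and changed by 0.33, 0.08 and -0.06. It shares 22.09% of its exon length with Cenpo on the opposite strand, which stood at 61.9 to 161 CPM in polyA females, so its small counts are uncertain. Prkaca (chr8:83972993-83996443, plus strand), the catalytic subunit alpha gene, changed by 0.30, 0.26 and 0.01, and Prkacb (chr3:146729574-146812990, minus strand), the catalytic subunit beta gene, by 0.68, 0.78 and -0.07. The Prkacb change was 1.60-fold at GV and 1.72-fold at GV3h (edgeR adjusted p = 0.406 and 0.154), and at GV3h its cKO females (11.8, 7.74 and 12.7 CPM) all lay above its control females (6.14, 5.82 and 6.81 CPM). Prkacb at GV followed the same order of cKO females as Gnas, 17.5 CPM in V857 and 7.19 CPM in V888. That order also held for Gpr3, Adcy9, Pde3a, Prkaca and Prkar1a, and the reverse order for Adcy3, Prkar2a and Prkar2b. Prkar1a (chr11:109649405-109669656, plus strand), the type I regulatory subunit gene, changed by 0.29, 0.32 and -0.26, and Prkar2a (chr9:108689314-108750436, plus strand), the RII alpha gene, by -0.21, -0.38 and -0.02. Of these changes, that of Prkar2a at GV3h came closest to a call, with 134, 142 and 116 CPM in control and 103, 107 and 91.3 CPM in cKO females (SE 0.14, edgeR adjusted p = 0.0501). Those females did not overlap. The 95% confidence interval at GV3h was widest for Prkacb, from -0.04 to 1.61, and for Adcy3, from -0.69 to 0.84.

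In RiboMinus MII eggs, where the control group is 1 female, several of these genes were apart between genotypes without a call. How many of all genes were apart in this way was not counted. Prkar1a stood at 124 CPM in the control female and at 55.4 and 70.7 CPM in the cKO females (log2 change -0.98, SE 0.27, edgeR adjusted p = 0.0612). Adcy3 stood at 3.49 CPM against 10.3 and 9.08 CPM (log2 change 1.47, SE 0.52, edgeR adjusted p = 0.113), and Prkar2a at 112 CPM against 234 and 162 CPM (log2 change 0.82, SE 0.30, edgeR adjusted p = 0.121). Eggs of the genotypes did not overlap for any of the 3 genes, nor for Adcy9 (20.9 CPM against 33.6 and 24.7 CPM, log2 change 0.48, edgeR adjusted p = 0.413). DESeq2 on female sums called Prkar1a, Adcy3 and Prkar2a, with adjusted p-values of 0.0262, 0.0118 and 0.0386, but it called 20.6% of all genes here, against 7.3% by edgeR.

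From GV to GV3h, the interval in which arrest can be lifted, none of the 10 genes was called by edgeR in either genotype, and neither was any of the 19242 genes tested (0%). Unadjusted p-values were under 0.05 for 425 genes in controls and 373 in cKO oocytes. Among the 10 genes this held for 0 in controls and for 1 in cKO oocytes, Gpr3, whose level changed by -0.47 (SE 0.19, edgeR adjusted p = 1.0). DESeq2 called none of the 10 genes, and 0.0832% (control) and 0.0883% (cKO) of all genes. Limma voom also called none of the 10, and 0.105% (control) and 0.191% (cKO) of all genes. The difference of this stage change between genotypes was called for 0 of the 10 and for 0% of all genes, and an unadjusted p under 0.05 was reached by 0 of the 10.

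From GV to MII the polyA levels of 3 of the 5 PKA subunit genes, Prkaca, Prkar2a and Prkar2b, and of Adcy9 rose, while those of Prkacb (log2 change 0.73 in control and -0.02 in cKO) and Prkar1a (0.33 and -0.22) were not called. In control oocytes 4 of the 10 genes were called, all of them higher at MII (Adcy9, Prkaca, Prkar2a and Prkar2b), and in cKO oocytes 5, the same 4 and Pde3a. Over all genes 42.5% were called in controls and 44.7% in cKO oocytes, so the count of called genes was near the background. All of these were higher, whereas of all called genes, 4952 of 8182 (control) and 5123 of 8610 (cKO) were lower at MII. Granulosa and cumulus markers also moved over this interval: 3 of 13 tested were called in control (1 higher and 2 lower at MII) and 5 of 13 in cKO oocytes (1 higher and 4 lower), with median log2 changes of -1.18 and -1.50. Inha went from 8.18 to 0 CPM in control and from 6.28 to 0.169 CPM in cKO, and Cyp19a1 from 36.5 to 104 CPM and from 18.9 to 77.0 CPM. The part of the granulosa and cumulus RNAs in the rises was not tested. Oocyte markers changed as well. In control 8 of 10 were called (3 higher and 5 lower at MII, median log2 change -0.77). In cKO oocytes 10 of 10 were called (4 higher and 6 lower, median -1.31). The median log2 change was 0.60 (control) and 0.66 (cKO) over the 10 genes and -0.26 and -0.33 over all genes.

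**Figure D3:**
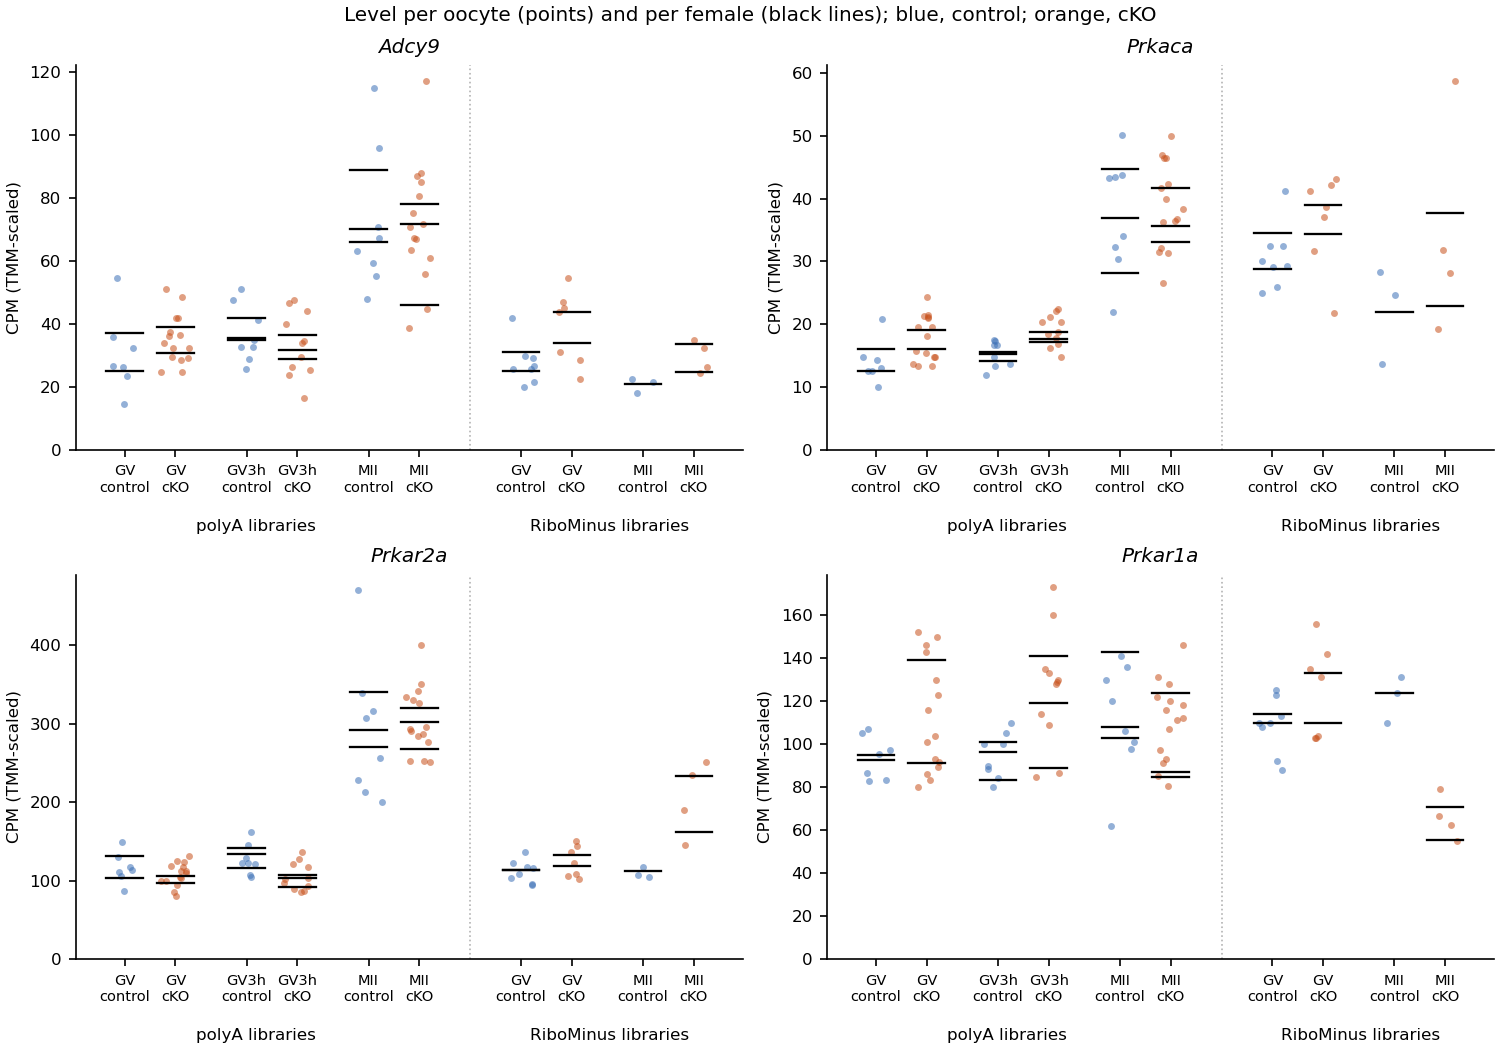
Levels of Adcy9, Prkaca, Prkar2a and Prkar1a in TMM-scaled CPM (y axis, linear from 0) in the 10 groups (x axis). Points are oocytes, black lines are females, blue is control and orange is cKO; polyA levels of Prkaca and Prkar2a at MII lie above every GV oocyte of the same genotype, while RiboMinus control levels do not.

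Prkar2a, the RII alpha gene, was called in both genotypes. Its GV females stood at 131 and 104 CPM (control) and 97.0 and 106 CPM (cKO), and its MII females at 341, 292 and 271 CPM (control) and 302, 268 and 320 CPM (cKO). No MII egg overlapped a GV oocyte in either genotype. The log2 change was 1.36 (SE 0.16, edgeR adjusted p = 3.97e-06) in control and 1.55 (SE 0.16, edgeR adjusted p = 1.39e-06) in cKO oocytes. Prkaca rose from 16 and 12.5 CPM to 28.2, 44.7 and 36.9 CPM in control females and from 19.0 and 16.1 CPM to 33.1, 35.6 and 41.7 CPM in cKO females, with log2 changes of 1.36 (SE 0.23) and 1.07 (SE 0.23). Its eggs were all above the GV oocytes too. Prkar2b rose by 1.05 (SE 0.32, edgeR adjusted p = 0.0141) in control and by 1.80 (SE 0.33, edgeR adjusted p = 0.000339) in cKO oocytes. Its control call was lost without female V856 (adjusted p = 0.0801) or V889 (adjusted p = 0.0759). Adcy9 stood at 37.0 and 25.1 CPM in GV and 88.7, 70.1 and 66.1 CPM in MII control females, and at 39.1 and 30.6 CPM and 71.7, 45.9 and 78.1 CPM in cKO females. The log2 changes were 1.27 (SE 0.25) and 0.91 (SE 0.25), and the cKO call was lost without female V888 (log2 0.74, adjusted p = 0.0736). Pde3a rose by 0.86 in cKO oocytes (SE 0.19, edgeR adjusted p = 0.00166), and all 15 eggs lay above all 15 GV oocytes. In controls its change was 0.46 (SE 0.19, edgeR adjusted p = 0.0617), which was called in 7 of 13 alternatives, among them DESeq2 (log2 0.54, adjusted p = 0.0145), and was 0.03 with library totals and 0.28 without MII female V896.

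Scaling matters for these rises. With library totals in place of TMM, the median change of all genes was -0.69 (control, -0.26 with TMM) and -0.86 (cKO, -0.33 with TMM). The 4 control rises and 5 cKO rises stayed positive, but Adcy9 (log2 0.38), Pde3a (log2 0.34) and Prkaca (log2 0.55) in cKO oocytes and Prkar2b (log2 0.62) in controls were no longer called, while Gnas in controls (log2 -0.83, adjusted p = 0.0084) and Prkar1a in cKO oocytes (log2 -0.75, adjusted p = 0.00909) were called as lower. No gene of the 10 was called for a difference between the genotypes in the GV to MII change by edgeR, DESeq2 or limma voom (1.94% of all genes were called by edgeR), and none had an unadjusted p under 0.05. For Prkar2b that difference was 0.75, with a 95% confidence interval of -0.18 to 1.68.

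These rises were not called in RiboMinus libraries. None of the 10 genes was called from GV to MII by edgeR in control oocytes, where 2 of 25425 genes were (0.00787%), or in cKO oocytes, where 2.32% were. Unadjusted p-values were under 0.05 for 1 and 4 of the 10 genes, and for 15.1% and 20.3% of all genes. DESeq2 called 1 and 2 of the 10 (6.08% and 11.5% of all genes), and limma voom 1 and 3 (7.0% and 19.9%). Prkaca stood at 34.5 and 28.8 CPM in GV and 22.0 CPM in the MII control female (log2 change -0.53, SE 0.39), and Adcy9 at 31.0 and 25.1 CPM and 20.9 CPM (log2 change -0.42, SE 0.37). Prkar2a stood at 114 and 113 CPM in GV and 112 CPM in the MII control female, but at 133 and 119 CPM and 234 and 162 CPM in cKO females (log2 change 0.65, SE 0.24, edgeR adjusted p = 0.174). Pde3a stood at 390 and 348 CPM in the GV control females and 263 CPM at MII. Prkar2b had positive changes here too, of 0.34 (SE 0.53) in control and 0.52 (SE 0.44) in cKO oocytes (edgeR adjusted p = 0.789 and 0.525). The control change of Gnas was the widest (log2 1.87, SE 0.31, edgeR adjusted p = 0.0861), and it rests on female V1145. The difference between genotypes in the RiboMinus GV to MII change was called for none of the 10 genes and for 0% of all genes by edgeR. Unadjusted p-values were under 0.05 for 2 of the 10 genes, Gnas and Prkar1a, and for 14.2% of all genes. DESeq2 called 1 of the 10 and 4.43% of all genes, and limma voom 2 and 4.36%.

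The difference in the GV to MII change between the library types was tested in one fit over all 23 females. In controls 5 of the 10 genes were called, beside 22.8% of 24777 genes, and in cKO oocytes 5, beside 20.7%. The polyA change exceeded the RiboMinus change for Prkaca (by 2.06 in control and 1.53 in cKO oocytes on the log2 scale), Adcy9 (1.86 and 1.51), Prkar2a (1.54 and 1.07) and Pde3a (1.11 and 1.29). Prkar2b, whose polyA rise was called in both genotypes, was not called for a difference between library types (0.87 in control and 1.45 in cKO oocytes, edgeR adjusted p = 0.345 and 0.0579). For Gnas the difference was -2.09 (SE 0.39, edgeR adjusted p = 0.000361) in control and 1.04 (SE 0.36, edgeR adjusted p = 0.0431) in cKO oocytes. In cKO oocytes the calls of Prkaca, Adcy9 and Prkar2a were lost with library totals (log2 0.83, 0.80 and 0.37) and with only the groups compared (1.45, 1.42 and 0.99). The Pde3a call was lost with library totals in control and in cKO oocytes (log2 0.58 in each, adjusted p = 0.201 and 0.14). The cKO value of Gnas was called in only 6 of 17 alternatives, and it fell to 0.67 without female V888 (adjusted p = 0.208) and to 0.64 without female V1131 (adjusted p = 0.248). In the control comparison the whole RiboMinus MII group is female V1145. A polyA library counts RNA with a tail that oligo(dT) can capture, and the length of the tails was not measured.

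**Figure D4:**
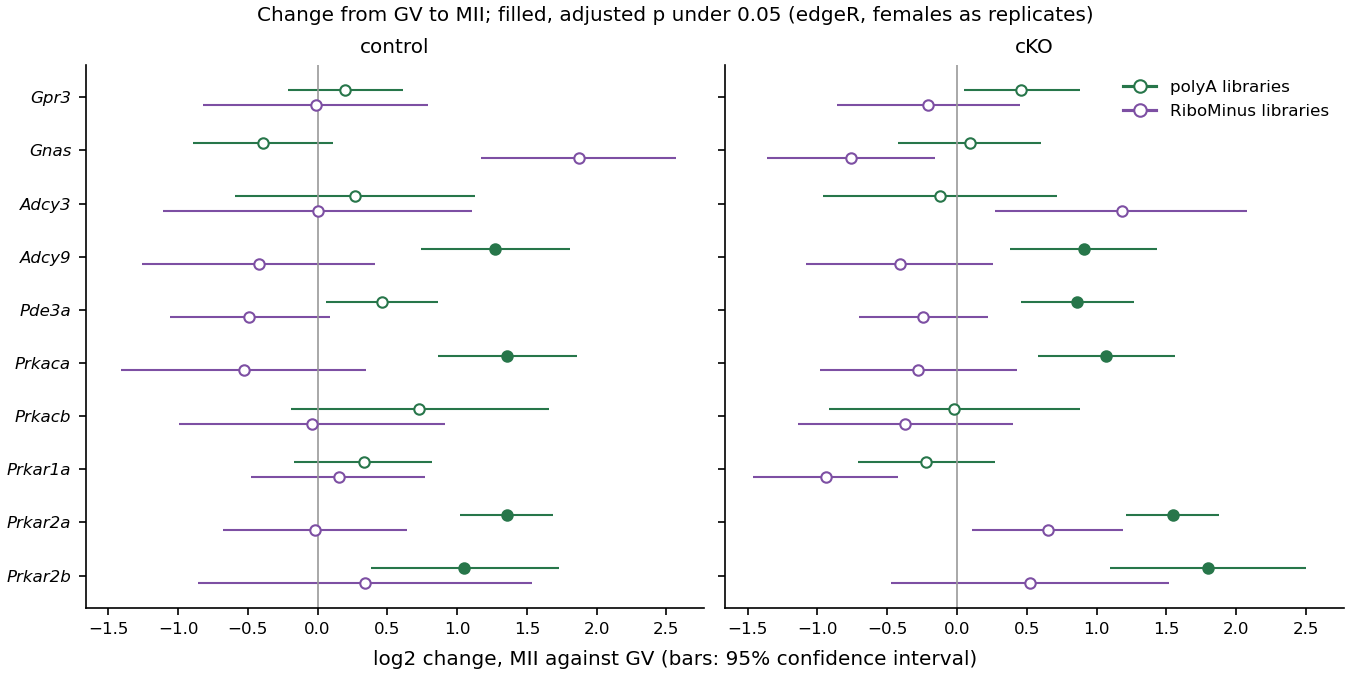
The log2 change of MII against GV (x axis) for each of the 10 genes (y axis), control left and cKO right. Points are estimates with 95% confidence intervals, green for polyA and purple for RiboMinus libraries, filled where the adjusted p was under 0.05; the filled points are all polyA and all right of 0.

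The ends of the transcripts are shown because cytoplasmic lengthening of poly(A) tails during maturation is known to depend on a cytoplasmic polyadenylation element (CPE) near the polyadenylation hexamer. Each line is the 30 bases that end with the last motif of an annotated transcript (GENCODE M21, GRCm38, transcribed strand, as DNA letters), with the hexamers AATAAA and ATTAAA and the CPE forms TTTTAT and TTTTAAT in capitals. The motifs were searched in the last 100 bases and can overlap each other.
Prkar2b: ccttatAATAAAgcacacTTTTATAATAAA
Prkacb: TTTTAATtcatcaataaccgcaaaATTAAA
Adcy3: gttgataaagaacaggactgTTTTATTAAA
Prkar2a: tagggcccggcttcactcttgactAATAAA
Prkaca: attaccAATAAAgttttgttttaaAATAAA
A CPE of these forms was found for 3 of the 10 genes, Prkar2b (transcript end at chr12:31958476), Adcy3 (chr12:4213524) and 1 of the annotated ends of Prkacb (chr3:146729574), and for 23.34% of 17077 protein-coding genes, and a hexamer for 84.29% of them. Of the genes whose polyA level rose from GV to MII, Prkar2b has one in this window, and Prkar2a, Prkaca, Adcy9 and Pde3a have none. The annotated ends of Adcy9 and Pde3a hold no hexamer in this window either. The lack of a CPE there is therefore uninformative for Adcy9 and Pde3a. Prkacb and Adcy3 have one and were not called (control log2 changes 0.73 and 0.27). These are matches of letters in annotated ends, and the ends used in these oocytes were not analysed here.

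Levels of different genes are set side by side per kb of exon, with all annotated exons of a gene counted in its length. This length can exceed that of the transcripts present, as for Gnas with 24 annotated transcripts over 11186 bp. Such a gene then appears lower, so the order is a rough one. In polyA GV control females the order was Pde3a (35.4 CPM per kb ± 1.64, SD, n = 2), Gpr3 (28.9 ± 1.78), Prkar1a (21.7 ± 0.424), Prkar2a (18.4 ± 2.98), Gnas (11.9 ± 1.09), Prkar2b (7.45 ± 0.193), Adcy9 (5.98 ± 1.62), Prkaca (5.74 ± 1.00), Prkacb (0.877 ± 0.314) and Adcy3 (0.876 ± 0.149). Neighbours whose females overlapped were Adcy9 with Prkaca and Prkacb with Adcy3. RiboMinus GV control females gave a like order with Gpr3 (34.9 CPM per kb) ahead of Pde3a (28.9 CPM per kb) and Prkaca higher, at 12.7 CPM per kb. In both library types Prkaca was the more abundant catalytic subunit gene and Adcy9 the more abundant of the cyclase genes. Among the regulatory subunit genes the order in polyA controls changed between stages: Prkar2a went from 18.4 to 47.2 CPM per kb from GV to MII, Prkar1a from 21.7 to 27.3 and Prkar2b from 7.45 to 15.5. Counts per oocyte ran from 4 to 706 for Adcy3, from 24 to 963 for Prkacb and from 19 to 881 for Prkar2b, against 1313 to 17641 for Pde3a.

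**Figure D5:**
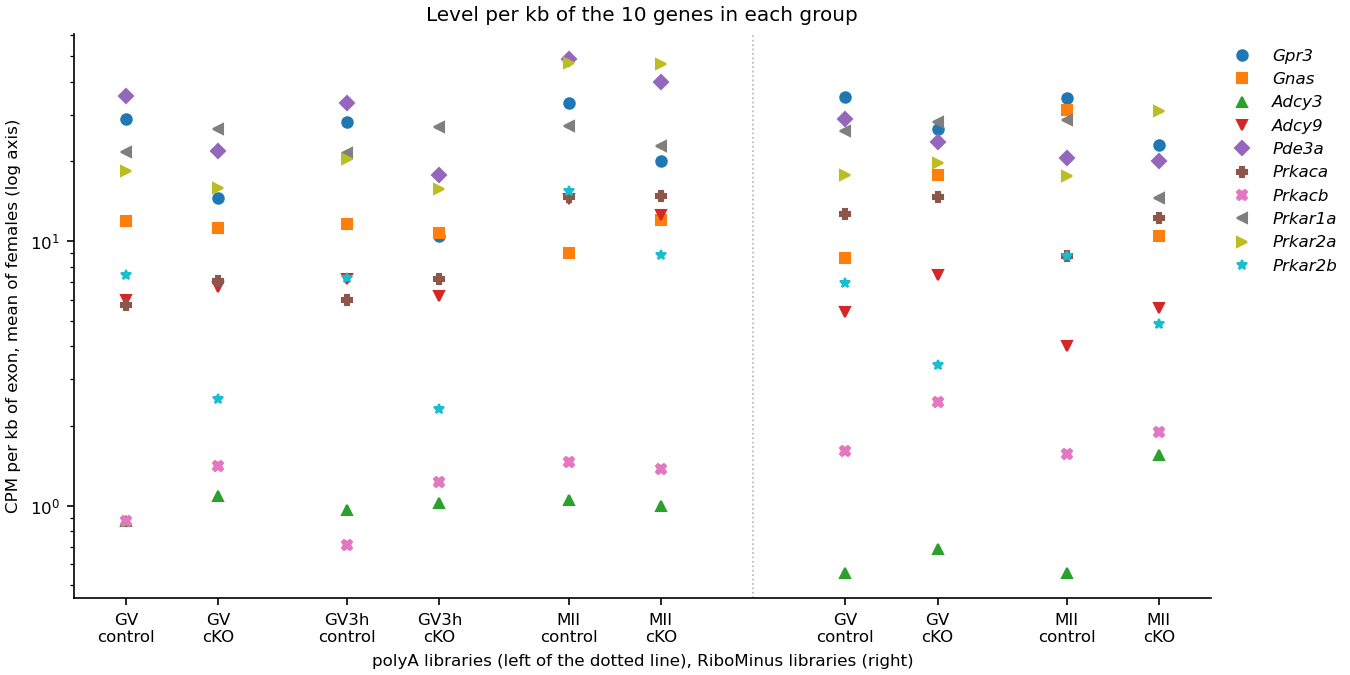
Level of each of the 10 genes in CPM per kb of exon (y axis, log scale), as the mean of the females in each group (x axis). Each symbol is 1 gene; Prkacb and Adcy3 are lowest in all 10 groups, and Prkar2b is lower in cKO than in control in each pair of groups.

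Across the 16 polyA females, which differ in stage and genotype, the genes most like Gpr3 in log2 CPM were Mast4 (Pearson r = 0.971), Zfp980 (0.965) and Ece1 (0.964), among 9286 genes. Those most like Pde3a were Rictor (0.989), Crebbp (0.975) and Heatr5a (0.975). Among the 10 genes themselves, Pde3a was most like Prkar2b (0.91) and Gpr3 (0.88), and Adcy9 was most like Prkar2a (0.93). These are descriptions over females that share groups.

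The wider cAMP pathway was described with 91 other genes in 8 lists, of which 82 were tested in polyA and 87 in RiboMinus libraries. At polyA GV3h 32 were called (39.0%, against 25.2% of all genes; 12 higher and 20 lower in cKO), at MII 21 (25.6%, against 18.9%; 10 higher and 11 lower) and at GV 2 (2.44%, against 7.38%). At RiboMinus MII 8 of 87 were called (9.2%, against 7.3%) and at RiboMinus GV none by edgeR. From GV to MII 38 polyA genes were called in control (46.3%, against 42.5%; 22 higher and 16 lower at MII) and 35 in cKO oocytes (42.7%, against 44.7%; 19 and 16). The lists that follow are small and are to be read against the same shares of all genes, 25.2% at polyA GV3h, 18.9% at polyA MII and 7.3% at RiboMinus MII.

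Among receptors and G protein genes, 8 of 21 were called at GV3h (3 higher and 5 lower in cKO) and 10 of 21 at MII (5 and 5). Gnai1, an inhibitory G protein alpha subunit gene, was lower in cKO (log2 -1.54 at GV3h and -0.83 at MII), as was Rgs2, a regulator of G protein signalling (-0.34 and -0.81), while Gng5, a gamma subunit gene, was higher (1.03 and 0.86). Of 5 other cyclase genes tested, Adcy1 was higher (log2 1.49) and Adcy5 lower (-0.92) at GV3h, and none was called at MII. Of 14 other phosphodiesterase genes, 5 were called at GV3h (2 higher and 3 lower), among them Pde4d (log2 -1.14), Pde4a (-0.88) and Pde7a (4.82, from 0.154 to 4.6 CPM on average). At MII 2 of the 14 were called (1 higher and 1 lower in cKO), and Pde4d was lower there too (-1.18).

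Of 5 other PKA subunit and inhibitor genes, Prkx, a catalytic subunit relative (log2 1.59), and Pkib, a PKA inhibitor (2.37), were higher at GV3h, and Prkx also at MII (1.17). Anchoring protein genes, which tether PKA, were called in numbers near the background in polyA libraries, and the called ones were lower in cKO: 4 of the 13 tested at GV3h, 2 of the 13 at MII and, in RiboMinus eggs, 3 of 15. Akap2 was lower at polyA GV (log2 -1.19), GV3h (-1.13), MII (-1.07) and RiboMinus MII (-2.26), and Akap9 at GV3h (-1.08), MII (-1.05) and RiboMinus MII (-2.44). Akap12 was lower at GV3h (-0.82) and RiboMinus MII (-1.81).

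Of 9 genes that act in resumption downstream of PKA, 2 were called at GV3h (1 higher and 1 lower) and 2 at MII (both higher). Wee1, a kinase that inhibits CDK1, was higher in cKO at GV3h (log2 2.05), where its females ran from 6.96 to 15.1 CPM in control and from 20.1 to 58.2 CPM in cKO. Ccnb2, a cyclin B gene, was higher in cKO at MII (0.59) and rose from GV to MII (1.09 in control and 1.49 in cKO). Cdk1 itself fell by 3.52 in control and by 2.88 in cKO polyA oocytes from GV to MII on the log2 scale, and was called in neither RiboMinus comparison. Among 9 other cAMP effector genes, 7 were called at GV3h (3 higher and 4 lower), with Rapgef3, a cAMP-gated exchange factor, at -1.93 and the transcription factor gene Crem at 1.66 and its coactivator relative Crtc1 at 0.56. Of 6 genes for cyclic GMP supply, 2 were lower at GV3h and 2 at MII. Gja4, the oocyte gap junction gene through which cyclic GMP enters, was lower in cKO at both (log2 -0.90 and -0.67) and fell by 3.20 in control oocytes from GV to MII, and Pde9a, a cyclic GMP phosphodiesterase gene, was lower at both (-2.20 and -2.75).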

How the data were processed

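Per the labels' protocols, the authors made polyA libraries from single oocytes by oligo(dT) capture, amplification and a Nextera kit, and RiboMinus libraries with the Ovation Solo system and random hexamer priming. The deposited files hold raw counts per Ensembl gene for 1 oocyte each, with no normalization. The submitters' processing notes name cutadapt 2.5, FastQC 0.11.8, STAR 2.7.2a, SAMtools 1.9, HTSeq 0.9.1, R 3.5.1, DESeq2 1.24.0 and the build mm10. Strand setting, duplicate removal and annotation release are not given in the sources used here.

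Of 55573 gene IDs, 55394 had a symbol. The 5 summary lines were left out of the gene totals. Of all counts of an oocyte, summary lines included, reads outside genes made up 5.85% to 14.17% and ambiguous reads 2.07% to 3.19%. Coordinates are from GENCODE M21 (GRCm38, the same assembly as mm10). Counts were summed per female and tested in edgeR 4.0.16 (R 4.3.3) with filterByExpr, TMM factors and two-sided quasi-likelihood F tests, in 1 layout over all groups of a library type (16 polyA females and 10 residual degrees of freedom; 7 RiboMinus females and 3) or over both (23 females and 13). In all, 16 contrasts were tested. Intervals are at 95%. The labels name the female of each oocyte but not how females were housed or processed, and a lone control female (RiboMinus MII) was assumed to vary like the other groups. The fit was also run on simulated counts that varied less between females than these data. That run does not show how often the calls made here are wrong. Named were all 10 genes, at most 3 genes of each other list (those called most often), the 3 genes most like Gpr3 and Pde3a (average log2 CPM 3 or more), and Exosc10. The genes and lists were chosen with earlier results of these data known. Alternatives were oocytes as replicates, limma 3.58.1 voom over oocytes (females as random blocks), DESeq2 1.42.0, only the groups compared, DESeq2 size factors, library totals, no filter, a mean of at least 50 counts, and leaving out each female. The 22 rRNA files were not used here. Figures used matplotlib 3.10.9.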

Additional observations from a re-analysis of the deposited data

Results flagged for a closer look

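Single oocytes stood far from their group for 4 of 60 gene and group pairs tested by Dixon's criterion, a number near the 1 in 20 that chance gives. Gnas was at 173 CPM in oocyte 4 of control female V856 (polyA GV), where the next of 7 oocytes was at 136 CPM. In RiboMinus GV controls, oocyte 4 of female V1132 held 523 CPM of Pde3a (next of 8 at 384 CPM) and 41.8 CPM of Adcy9 (next at 29.9 CPM), and oocyte 2 of the same female held 41.3 CPM of Prkaca (next at 32.5 CPM).

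The GV to MII change differed between polyA and RiboMinus libraries for 5 genes in each genotype (edgeR quasi-likelihood test, Benjamini-Hochberg adjustment). In control oocytes the log2 difference was 2.06 for Prkaca (adjusted p = 0.00125), 1.86 for Adcy9 (0.00318), 1.54 for Prkar2a (0.000569), 1.11 for Pde3a (0.0109) and -2.09 for Gnas (0.000361). In cKO oocytes it was 1.53 for Prkaca (adjusted p = 0.00476), 1.51 for Adcy9 (0.00591), 1.07 for Prkar2a (0.0045), 1.29 for Pde3a (0.0014) and 1.04 for Gnas (0.0431). With library totals none of these 5 cKO differences was called (Prkar2a was at 0.37), while that of Adcy3 was (log2 -1.83, adjusted p = 0.0267). Prkaca, Adcy9, Prkar2a and Gnas were also not called with only the groups compared, and Gnas was called in 6 of 17 alternatives. In control oocytes the Pde3a call was lost with library totals (log2 0.58).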

How the results depend on the processing

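Of the counts of called genes over 16 contrasts and 8 alternatives, 90 of 128 stayed within 1.5 times the main count, and 82 of 90 did when a female was left out. None of 2180 values of single genes reversed among those called in either setting; values called in neither were not judged for direction. With oocytes as replicates, which treats oocytes of 1 female as independent, the genotype counts of the 10 genes, with the share of all genes called in parentheses here and below, were 4 at polyA GV (35.8%), 5 at GV3h (44.0%), 2 at MII (40.1%), 3 at RiboMinus GV (25.8%) and 4 at RiboMinus MII (34.6%). The stage counts were then 2 for RiboMinus control GV to MII (19.4%), 3 for RiboMinus cKO (22.4%), 8 for the cKO difference between library types (45.5%), 1 for the polyA genotype difference, GV to MII (16.9%) and 3 for the RiboMinus one (14.8%). Limma voom over oocytes, with females as random blocks, gave 2 at polyA MII (22.4%), 1 at RiboMinus GV (8.32%), 4 at RiboMinus MII (24.8%), 1 and 3 for RiboMinus control and cKO GV to MII (7.0% and 19.9%), and 2 for their difference (4.36%). DESeq2 gave 2 (24.7%), 1 (6.19%), 4 (20.6%), 1 (6.08%), 2 (11.5%) and 1 (4.43%) in the same order. With only the groups compared the counts were 0 at polyA GV (0.00555%), 5 at GV3h (39.7%), 2 at polyA MII (18.3%), 2 for RiboMinus control GV to MII (27.9%) and 1 for the cKO difference between library types (12.2%). DESeq2 size factors gave 2 at polyA MII (19.1%). Library totals gave 3 for polyA cKO GV to MII (48.6%) and 1 for the cKO difference between library types (21.5%). Without the filter the counts were 2 at polyA MII (11%), 1 at RiboMinus GV (4.74%), 2 at RiboMinus MII (11.9%), and 1, 1 and 1 for RiboMinus control and cKO GV to MII and their difference (3.09%, 7.52% and 2.89%). With a mean of at least 50 counts they were 2 at polyA MII (25.7%) and 2 at RiboMinus MII (14.3%). Leaving out 1 female gave 0 to 1 at polyA GV (0.529% to 8.8%), 0 to 1 at RiboMinus GV (0.00798% to 4.71%), 1 to 3 at RiboMinus MII (8.27% to 15.2%) and 0 to 2 for RiboMinus cKO GV to MII (0.0247% to 7.61%). Fewer groups or females leave fewer degrees of freedom; the causes of the other changes were not tested. No paired analysis was possible because every female gave oocytes of 1 stage, genotype and library type with gene counts. Depth was lowest for Adcy3, with as few as 4 counts in an oocyte. The RiboMinus MII controls are 1 female, so no alternative could leave her out.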
